A study of Rattus norvegicus with 24 samples.

Results

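The genes described here carry the peptides that T cells read, and the machinery that makes and loads those peptides. They were taken as every probe set of a rat expression array whose single gene symbol begins with RT1-, the prefix of the rat major histocompatibility complex (MHC), or is B2m, Tap1, Tap2, Tapbp, Psmb8, Psmb9, Psmb10, Psme1, Psme2, Nlrc5, Erap1, Cd74 or Ciita. The rule found 31 of the 14217 genes with a symbol of their own, measured by 50 of the 31042 probe sets tested. They were divided by symbol into 23 class I, 14 class II and 13 peptide-processing probe sets. Another 6 probe sets pair an RT1- symbol with further symbols and were left out, and 0 of them passed the threshold in either comparison.

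RNA was measured in the hypothalamic blocks of 18 male Wistar rats, an outbred stock, aged 7 weeks, with 1 array per rat and 6 rats per group. The control rats were neither restrained nor exposed to an odour. The stress rats were held in wire mesh for 2 h. The linalool rats were held in the same way for 2 h while 20 µL of (R,S)-linalool, a racemic floral monoterpene alcohol, evaporated into their 40 L box. Rats were killed directly after the exposure. The design asks what restraint did (stress against control) and what the odour did under restraint (linalool against stress). No group received linalool without restraint.

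MHC class I molecules sit on most nucleated cells as a heavy chain paired with beta-2 microglobulin (B2m). They show peptides that the proteasome cuts, the TAP transporter (Tap1, Tap2) brings into the endoplasmic reticulum, Erap1 trims and tapasin (Tapbp) helps to load. Class II molecules are alpha and beta chains on antigen-presenting cells, which travel with the invariant chain Cd74 and exchange peptides with the help of the DM pair. Nlrc5 and Ciita are the coactivators of class I and class II promoters. In the brain, class II is known mainly from microglia, from macrophages of the meninges and perivascular spaces, and from blood-derived cells.

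Promoters are shown because both kinds of transcriptional control named above act through short motifs near the gene's start. RefSeq sequence of the assembly GRCr8, from 250 bases before to 50 bases after the gene's start, was at hand for 26 of the 31 symbols. The first 5 lines give class II genes with every match to the Y box (CCAAT, or ATTGG on the other strand) in capitals. The Y box is the kind of site where factor NF-Y is known to bind beside the RFX factors. RFX sites were not searched, so which matches are such sites is not known here. These 5 stretches lie at chr18:56526987-56527051 (plus strand) for Cd74, chr20:4515336-4515400 (plus) for RT1-Da, chr20:4576984-4577048 (plus) for RT1-Ba, chr20:4604145-4604320 (minus) for RT1-Bb and chr20:4560183-4560272 (minus) for RT1-Db1.
Cd74: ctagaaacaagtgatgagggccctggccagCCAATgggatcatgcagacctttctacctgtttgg
RT1-Da: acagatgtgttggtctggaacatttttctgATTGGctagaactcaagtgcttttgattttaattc
RT1-Ba: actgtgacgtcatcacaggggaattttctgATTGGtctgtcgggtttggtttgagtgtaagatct
RT1-Bb: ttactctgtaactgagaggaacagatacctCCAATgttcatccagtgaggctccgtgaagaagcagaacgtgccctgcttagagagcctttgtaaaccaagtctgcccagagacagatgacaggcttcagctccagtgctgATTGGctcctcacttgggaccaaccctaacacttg
RT1-Db1: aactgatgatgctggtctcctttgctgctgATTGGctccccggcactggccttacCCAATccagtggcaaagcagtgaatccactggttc
The next 3 lines give the core of the interferon-stimulated response element, GAAANNGAAA with N any base, in capitals. They lie at chr15:33052765-33052834 (minus) for Psme2, chr20:4967878-4967933 (minus) for Tapbp, where overlapping matches run together, and chr3:129549150-129549219 (plus) for B2m.
Psme2: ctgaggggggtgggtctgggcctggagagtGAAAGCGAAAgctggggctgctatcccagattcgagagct
Tapbp: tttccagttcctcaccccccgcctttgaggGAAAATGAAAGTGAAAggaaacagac
B2m: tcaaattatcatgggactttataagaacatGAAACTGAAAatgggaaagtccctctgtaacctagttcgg

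The 3 classes differed in which motif their promoters hold, searched on both strands. The interferon-response core was found in 6 of 8 peptide-processing promoters (Psmb8, Psmb10, Psme2, Tap1, Tap2 and Tapbp), in 3 of 12 class I promoters (B2m, RT1-N3 and RT1-S3) and in 0 of 6 class II promoters. Over the members that is 34.6%, beside 3.92% of all 33469 promoters in the table. The Y box was found in 6 of 6 class II, 10 of 12 class I and 2 of 8 peptide-processing promoters, 69.2% of the members beside 37.5% of all promoters. The GAS motif of interferon gamma signalling, TTCNNNGAA, was in 2 of 26 (RT1-M3-1 and Psmb8), 7.69% beside 8.87%. These counts describe letters in a window of fixed length and show no binding; the windows of neighbouring RT1 genes are related in sequence, and the matches were not tested.

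In place on the genome, 22 of the 30 member genes found in the RefSeq gene table lie on chromosome 20. Tap2, Psmb8, Tap1, Psmb9, RT1-DMb and RT1-DMa follow each other there with 0 annotated genes between them, so that peptide-processing genes stand inside the class II region. RT1-N3, RT1-S3 and RT1-T24-4 also follow each other with 0 annotated genes between them, and RT1-T24-3 comes 3 annotated genes further on. Psme1 and Psme2 are a pair on chromosome 15 with 1 annotated gene between them. Of the class I probe sets, 7 of 23 carry the suffix that marks probes shared with other genes and 2 carry the suffix for probes common to several transcripts, so which RT1 gene such a probe set reads is uncertain.

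The deposited values are log2 signals, and the spread between arrays differed by orders of magnitude between probe sets. For 31 of the 50 members in the stress comparison and 38 of 50 in the linalool comparison the residual SD (the SD between rats within groups) was under 0.01, called compressed here, as it was for 83.5% and 83.7% of all probe sets. A log2 difference is then close to 0 whatever the ranks of the rats, so differences are also given in residual SDs, with an SE of 0.577 for every probe set. Controls 4, 5 and 6 stood apart from the other arrays in earlier results of these data. Values without them are given beside the class II, peptide-processing and listed genes below. Of 11 measured hypothalamic markers 8 lay above the middle of the array's signals, among them Hdc, the histamine-making enzyme, while 0 of 7 lymphocyte markers did. Control probe sets for RNA that rats do not make passed the threshold for 1 of 45 in the stress comparison and for 19 of 45 in the linalool comparison. Processing of the arrays and the odour can therefore not be told apart in the second comparison.

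Restraint for 2 h left no MHC or antigen-processing probe set past the threshold. With limma and Benjamini-Hochberg adjustment over all probe sets, 0 of 50 members had an adjusted p under 0.05, where 172 of 31042 probe sets (0.554%) did. An unmoderated t gave 0 as well, and at an unadjusted p under 0.05 limma had 11 of 50 members, where 16.0% of all probe sets lay. Those 11 were divided unequally, with 7 of 14 class II, 2 of 23 class I and 2 of 13 peptide-processing probe sets. The groups overlapped for every one of the 50 members; they did not overlap for 1.78% of all probe sets.

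The median difference, stress minus control, was -0.0709 residual SDs for class I, -0.0961 for class II and -0.426 for peptide processing, beside 0.12 for all probe sets. These 3 medians became 1.08, 1.1 and 1.1 when each array was centred on its median, because that shift is larger than the spread of a compressed probe set, and the median over all probe sets then was 1.1. Under quantile normalization they were 0.607, 0.872 and 0.868, beside 0.877 for all. Differences were negative for 14 of 23 class I, 7 of 14 class II and 9 of 13 peptide-processing probe sets, and for 44.9% of all probe sets. The study's published report is known to name MHC class I genes, so this choice of genes is not independent evidence of a direction.

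**Figure D1:**
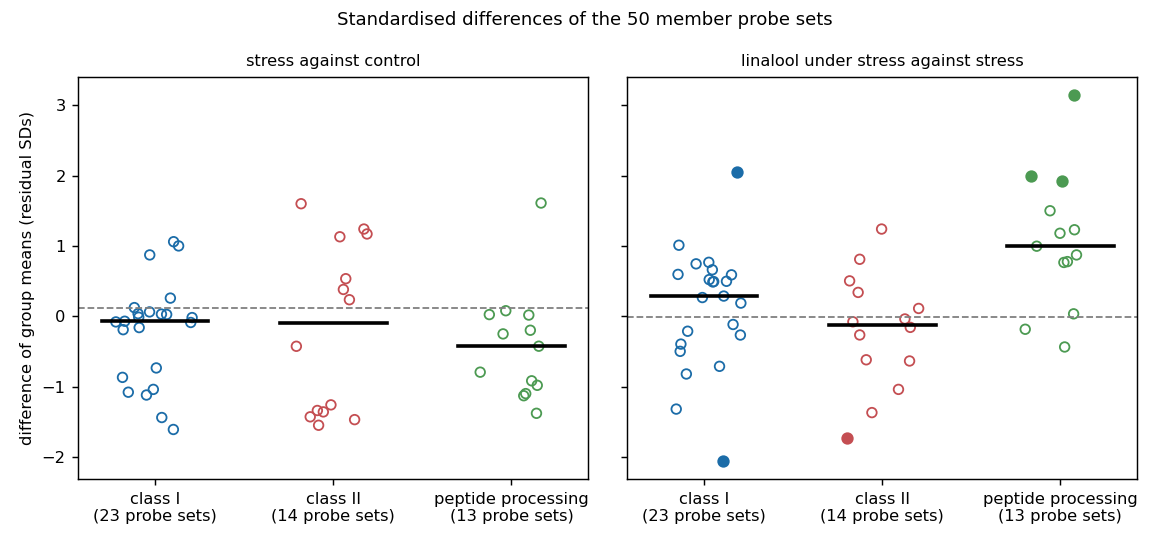
Difference of group means in residual SDs for each of the 50 probe sets by class (points), for stress minus control and for linalool minus stress, with the median of each class (black bars) and the median of all probe sets (dashed line). Stress differences lie between -1.61 and 1.61, and the peptide-processing median for linalool, 0.996, lies above the other classes.

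The largest log2 differences under restraint were those of Cd74 and RT1-Bb in class II, and the next was that of RT1-CE10 in class I, at -0.60. Cd74, the invariant chain, was measured at 7.99, 8.36, 8.87, 9.48, 10.21 and 9.92 log2 signal in controls 1 to 6. In stress rats 1 to 6 it was 8.24, 7.72, 7.83, 8.14, 8.14 and 8.60. The stress rats lay close together at the low end, and the controls were spread from that level to far above it. The difference was -1.03 ± 0.382 (SE; 9.14 ± 0.881 and 8.11 ± 0.314, SD, n = 6 each), with limma's adjusted p = 0.233.

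Chains of the class II molecules themselves gave a similar picture. They are named here after their values were seen, as the class II probe sets with a residual SD of at least 0.01. RT1-Da, the alpha chain of the D molecule, was 7.45, 8.18 and 8.85 in controls (lowest, median, highest) and 7.48, 7.66 and 7.73 in stress rats, a difference of -0.57 ± 0.229 (SE, n = 6 each; limma's adjusted p = 0.258). Its partner RT1-Db1 (1370383_s_at) was 7.61, 7.84 and 8.61 against 7.38, 7.63 and 7.74, a difference of -0.39 ± 0.167 (SE; limma's adjusted p = 0.282). In these probe sets of both chains the stress rats lay within or below the lower part of the controls' range. A second, compressed RT1-Db1 probe set (1370382_at) differed by 0.381 residual SDs, the other way (limma's adjusted p = 0.764).

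The B molecule gave a similar picture in 1 probe set of each chain. RT1-Ba (1377334_at), its alpha chain, was 7.09, 7.48 and 8.32 in controls and 6.87, 7.04 and 7.28 in stress rats, differing by -0.58 ± 0.228 (SE; limma's adjusted p = 0.248). RT1-Bb (1371033_at), its beta chain, was 7.19, 8.11 and 8.98 against 6.90, 7.36 and 7.63, differing by -0.76 ± 0.322 (SE; limma's adjusted p = 0.275). A second, compressed RT1-Bb probe set (1371065_at) ran the other way, at 1.6 residual SDs higher in stress rats (limma's adjusted p = 0.225). The 2 probe sets of RT1-Bb thus disagree in direction, each at an unadjusted p under 0.05.

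RT1-DMb, the beta chain of the peptide-exchange pair, was the exception among the 6 class II probe sets that were not compressed. Its controls lay at 8.63, 8.99 and 9.22 and its stress rats at 9.03, 9.14 and 9.32, a difference of 0.21 ± 0.102 (SE; limma's adjusted p = 0.338). Its partner RT1-DMa differed by 0.534 residual SDs (limma's adjusted p = 0.665). The Ciita coactivator had differences of 1.24 and 1.13 residual SDs in its 2 probe sets (limma's adjusted p = 0.32 and 0.35), positive while the chains' differences above were negative.

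**Figure D2:**
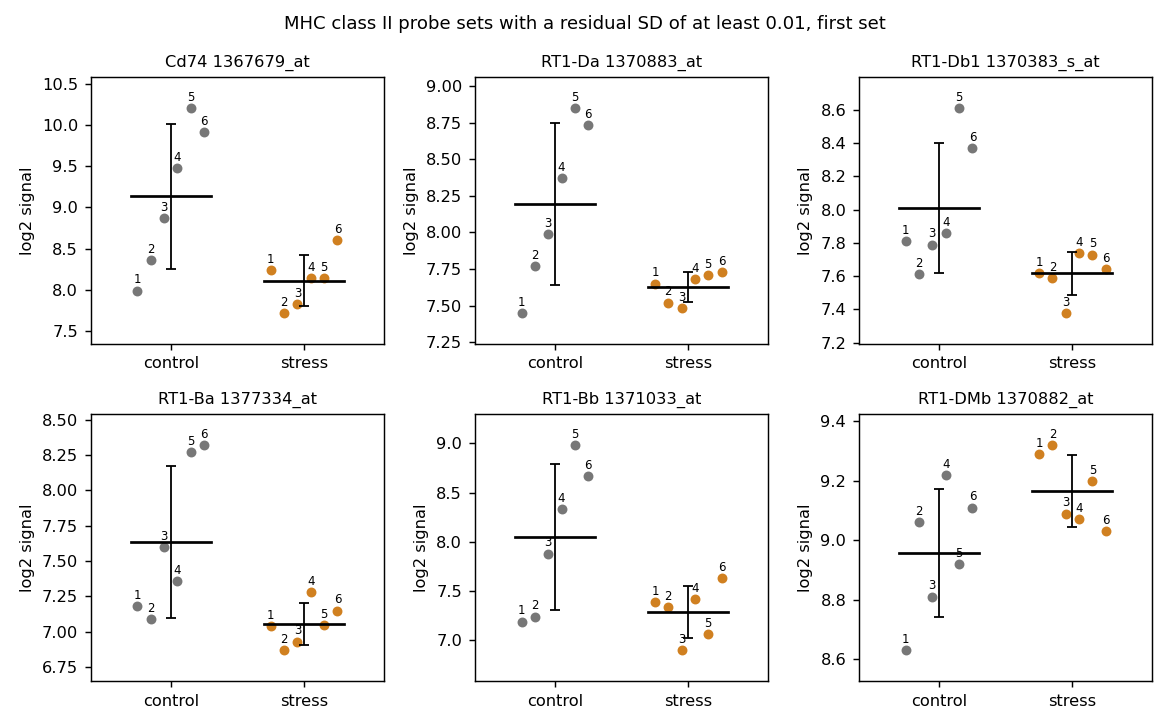
Log2 signal in each rat (points, numbered by rat), with group mean and SD (bar and error bar), for the 6 class II probe sets with a residual SD of at least 0.01, control against stress. In 5 of 6 the highest array is control 5 or 6, and Cd74 spans 7.99 to 10.21 in controls and 7.72 to 8.6 in stress rats.

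The class II differences rested on some of the controls. Control 5 or 6 was the highest of the 12 arrays in 5 of these 6 probe sets. Without controls 4 to 6, an alternative chosen after the data were seen, the difference was -0.29 for Cd74, -0.11 for RT1-Da, -0.12 for RT1-Db1, -0.24 for RT1-Ba and -0.15 for RT1-Bb (limma's adjusted p from 0.601 to 0.848). For RT1-DMb it was 0.33. At an unadjusted p under 0.05 there were then 3 class II probe sets, 1 each of RT1-Ba, RT1-DMa and RT1-DMb, and 0 of them were among the 7 found with all arrays. Their differences were -2.61, 2.25 and 2.15 residual SDs, and 0 members of any class passed the threshold.

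Markers of the meninges, the membranes around the brain, were high in the same controls as 5 of the 14 class II probe sets. Averaged over Cd74, RT1-Da, RT1-Db1, RT1-Ba and RT1-Bb, the level in residual SDs about the probe sets' own means was -0.678, -0.574, 0.302, 0.766, 2.44 and 2.04 in controls 1 to 6, and between -1.24 and -0.333 in stress rats. These 5 were picked after their values were seen, and RT1-DMb, which ran the other way, was left out. Over all 14 class II probe sets the level was -1.06, -0.191, 0.113, 0.609, 0.184 and 0.891 in controls 1 to 6. In stress rats it then lay between -0.536 and 0.401, and control 5 was the lowest array in 4 of the 14. The mean over 14 meningeal markers was -0.955, -0.69, 0.53, 0.834, 2.25 and 2.11 in the same controls and between -0.909 and -0.453 in stress rats. Of these 14 markers 12 lay above the middle of the array's signals and 0 passed the threshold, with Col1a1, a fibroblast collagen, at -0.98 ± 0.397 (SE; limma's adjusted p = 0.26). Their part in the class II differences was not tested. In a tissue block, fewer cells of a type and less RNA per cell cannot be told apart.

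Markers of other cell types were read in the same way. The mean over 13 microglial markers ran from -0.742 to 1.32 in controls and from -0.817 to 0.246 in stress rats. None of the 13 passed, and their median difference was -0.4 residual SDs. Tmem119 among them was higher in stress rats by 0.5 ± 0.109 (SE; limma's adjusted p = 0.0783), with the groups not overlapping. For 4 markers of border macrophages it ran from -1.25 to 1.49 and from -0.471 to 0.147, and 1 of these 4 lay above the middle of the array's signals. The 10 endothelial markers ran from -0.7 to 1.65 in controls and from -1.46 to -0.192 in stress rats, and 1 of them, the VEGF receptor Kdr, fell by 0.64 ± 0.107 (SE; limma's adjusted p = 0.0351, groups not overlapping). Without controls 4 to 6 the Kdr difference was -0.5 ± 0.0445 (SE), or -7.96 residual SDs against -3.42 with all arrays. With only controls 1 to 3 left it no longer passed (limma's adjusted p = 0.0803). Mean levels of lymphocyte and dendritic cell markers were higher in stress rats, but nearly all of these probe sets were compressed. The mean over 7 lymphocyte markers ran from -1.31 to 0.817 in controls and from 0.134 to 0.871 in stress rats, and that over 3 dendritic cell markers from -1.29 to 0.0956 and from 0.0623 to 1.33. Of these, 0 of 7 and 1 of 3 lay above the middle of the array's signals, and 0 passed. All 7 lymphocyte markers were compressed, as were the dendritic cell markers Itgax and Clec9a, so their log2 differences were close to 0. The lymphocyte marker Cd2 was lower in stress rats, at -0.597 residual SDs. The part of these cells in the class II values was not tested.

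**Figure D3:**
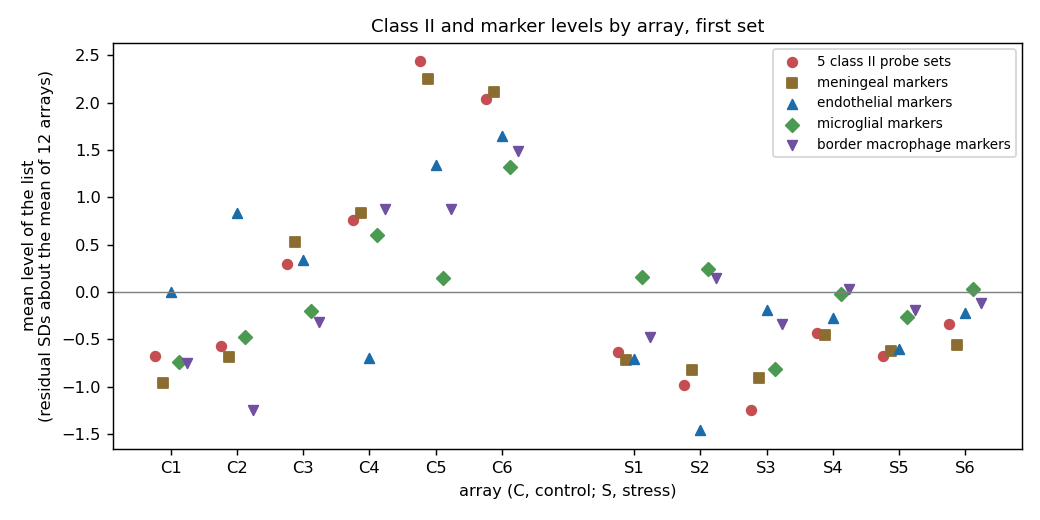
Mean level in residual SDs per array of the first set (6 controls, 6 stress rats) over the 5 class II probe sets and over cell type marker lists. The 5 class II probe sets and meninges have their highest values in controls 5 and 6, at 2.44 and 2.04 for these 5 and 2.25 and 2.11 for meninges. The 5 were picked after their values were seen. Over all 14 class II probe sets, controls 5 and 6 lie at 0.184 and 0.891.

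High values in controls 4 to 6 were also seen outside class II. The highest of the 12 arrays was control 4, 5 or 6 for 10 of 14 class II, 11 of 13 peptide-processing and 10 of 23 class I probe sets. That is 62.0% of the members, beside 27.6% of all 31042 probe sets. No test was made of these shares.

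Among class I probe sets, those with the smallest p under restraint were compressed. RT1-CE16, a class I heavy chain, lay in controls at -0.3, 0.353 and 2.65 residual SDs about its mean (lowest, median, highest) and in stress rats at -1.66, -0.815 and 0.254. The groups overlapped, and the difference was -1.61 residual SDs (limma's adjusted p = 0.227), turning to 1.1 under median centring and 1.32 under quantile normalization. RT1-CE5 (1388255_x_at) lay at -0.546, 0.579 and 2.61 in controls and at -2.1, -0.588 and 0.125 in stress rats, a difference of -1.44 (limma's adjusted p = 0.255), which turned to 1.06 and 0.681 under the same scalings.

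B2m, the light chain of every class I molecule, varied little between rats. Its brighter probe set read 12.92, 12.98 and 13.01 log2 signal in controls and 12.91, 12.94 and 12.99 in stress rats, a difference of -0.03 ± 0.0181 (SE, n = 6 each; limma's adjusted p = 0.459). Nlrc5, the class I coactivator, differed by 1.0 residual SDs with the groups overlapping (limma's adjusted p = 0.405). The other class I probe sets differed by at most 1.06 residual SDs upward, in RT1-M3-1, a nonclassical heavy chain known for presenting formylated bacterial peptides.

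No peptide-processing gene passed under restraint, and controls reached the higher values. Psme1, the alpha subunit of the PA28 proteasome activator, was 10.07, 10.27 and 10.44 in controls and 9.98, 10.11 and 10.22 in stress rats, a difference of -0.16 ± 0.0661 (SE; limma's adjusted p = 0.271). A second, compressed Psme1 probe set (1394006_at) differed by 0.0785 residual SDs (limma's adjusted p = 0.959). Psmb9, a catalytic subunit of the immunoproteasome, was 7.92, 8.15 and 8.42 against 7.89, 7.97 and 8.13, a difference of -0.17 ± 0.0904 (SE; limma's adjusted p = 0.364). The groups overlapped in both genes. Without controls 4 to 6 the differences were -0.04 for Psme1 and -0.03 for Psmb9 (limma's adjusted p = 0.831 and 0.927).

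Psmb8, its companion catalytic subunit, differed by -1.13 residual SDs (limma's adjusted p = 0.352), and by 1.09 under median centring. The 2 probe sets of Tap1, a subunit of the peptide transporter, stood at 1.61 (1375379_at) and -0.795 (1388149_at) residual SDs (limma's adjusted p = 0.226 and 0.5). The second read 1.1 under median centring. Without controls 4 to 6 Psmb8 stayed at -1.12 residual SDs, and the 2 Tap1 probe sets stood at 1.23 and -0.0452 (limma's adjusted p = 0.634, 0.601 and 0.989). The median over the 13 peptide-processing probe sets was then 0.341 residual SDs instead of -0.426.

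Measured by the residual SD, the widest spread between rats in class I crossed the groups. RT1-T24-3, a class I gene, was singled out after its values were seen. It read 9.39 log2 signal in control 5 and between 7.48 and 7.59 in the other controls. In stress rat 5 it read 9.01, the other stress rats lying between 7.39 and 7.73. In linalool rat 1 it read 9.29, and the other linalool rats lay between 7.5 and 7.82.

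So 1 rat in each group stood over 1 log2 unit above the others, and the means hardly differed: -0.01 ± 0.395 for stress and 0.12 ± 0.358 for linalool (SE; limma's adjusted p = 0.991 and 0.842). By the ratio of the gap to the group's range, 1 probe set of 31042, RT1-T24-3, had control 5, stress rat 5 and linalool rat 1 apart as the highest in all 4 columns of groups. These rats were read off RT1-T24-3 itself, so it was included by construction. The count covers no other combination of rats. The stress rats' second column repeats the same RNA, with 8.89 in stress rat 5 there.

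The same 3 rats were the extremes in its neighbours on chromosome 20. They were the highest of their groups in all 4 probe sets of RT1-S3, a nonclassical class I gene. In its probe set 1388213_a_at control 5 read 8.90, stress rat 5 read 8.65 and linalool rat 1 read 8.91, where the group medians were 8.25, 8.22 and 8.34. RT1-T24-4, next to RT1-S3, ran the other way, with 7.71 in control 5, 7.46 in stress rat 5 and 7.91 in linalool rat 1 as the lowest of their groups.

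Of the 50 members, 6 (12.0%) had these 3 rats as the highest of their groups, the sixth being an Erap1 probe set (1399161_a_at), beside 223 of 31042 probe sets (0.718%). For the lowest values it was 1 of 50 against 201 of 31042 (0.648%). The rats were picked from RT1-T24-3 itself, so these shares are a description. RT1-N3, which lies next to RT1-S3, was compressed in both sets.

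A different rat was extreme in part of the RT1-CE probe sets. Stress rat 3 was the lowest of the 12 arrays in 4 of 8, RT1-CE10 and RT1-CE12 among them, which were named after their values were seen. RT1-CE10 read 9.27, 9.79 and 10.11 in controls and 7.82, 9.23 and 10.07 in stress rats, with stress rat 3 at 7.82. The difference was -0.60 ± 0.331 (SE; limma's adjusted p = 0.385). For linalool against stress it was 0.47 ± 0.357 (SE; limma's adjusted p = 0.356), the linalool rats lying between 9.21 and 9.94. RT1-CE12 showed the same rat lowest, at 8.87, with differences of -0.44 ± 0.235 and 0.27 ± 0.213 (SE; limma's adjusted p = 0.37 and 0.371). Both comparisons share the 6 stress rats, and their values for these genes are given side by side only.

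**Figure D4:**
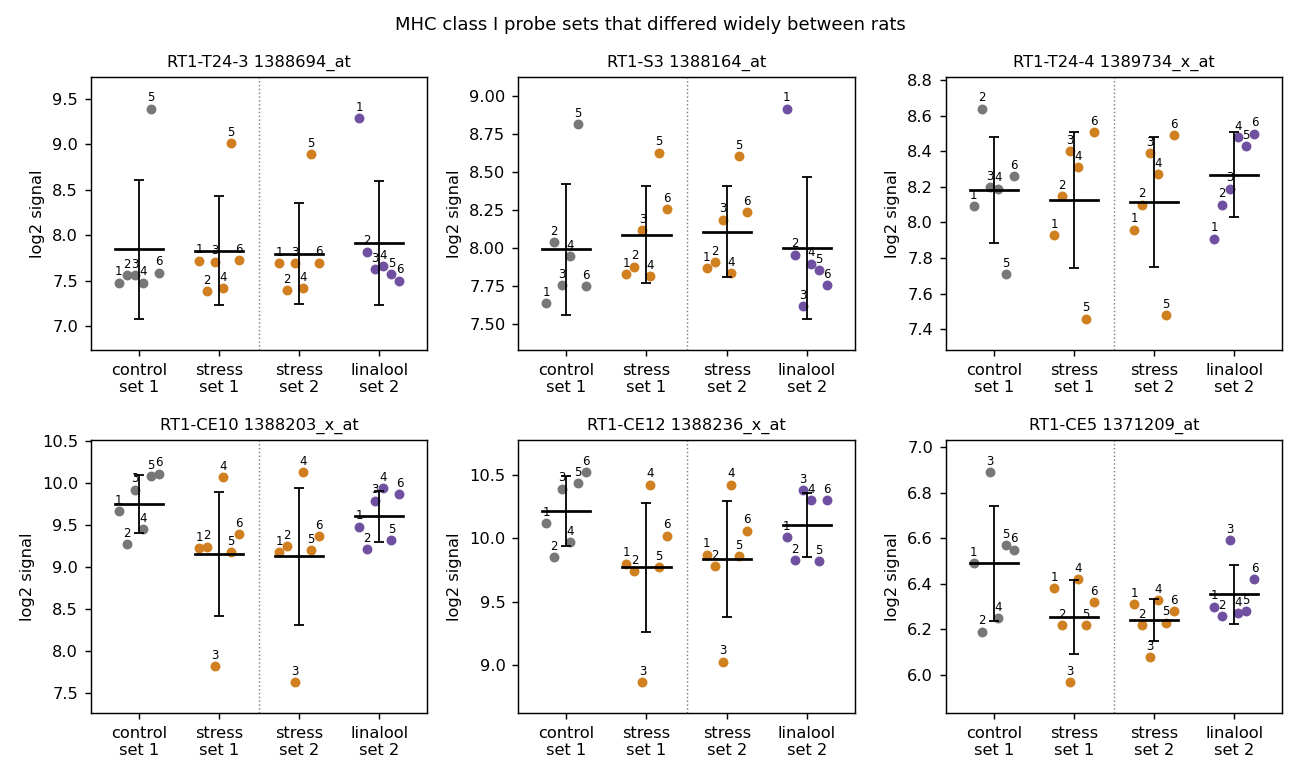
Log2 signal in each rat (points), with group mean and SD (bar and error bar), for class I probe sets with a wide spread between rats, in both normalization sets. RT1-T24-3 has 1 rat per group far above the rest (9.39, 9.01 and 9.29), and RT1-CE10 has stress rat 3 far below (7.82 in the first set, 7.63 in the second).

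Linalool under restraint went with higher signals in 3 peptide-processing genes and in 1 class I gene, and with lower signals in 1 class I and 1 class II probe set. These were 6 of 50 members (12.0%) with limma's adjusted p under 0.05, where 7763 of 31042 probe sets (25.0%) passed, so the members' share was below the background. Of the 6, only Psme1 was not compressed. The others had log2 differences from -0.000261 (Ciita) to 0.000226 (Tapbp). At an unadjusted p under 0.05 there were 9 of 50, beside 37.7% of all. Of all calls 56.7% were higher in linalool rats, but 94.9% after median centring, when 39 of the 50 members and 93.4% of all probe sets passed, all 39 members being higher. Peptide processing had 3 of 13 higher and 0 lower, class I had 1 of 23 each way, and class II had 0 higher and 1 of 14 lower.

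Psme1 was the member with the clearest difference. It read 9.86, 10.11 and 10.19 in stress rats (lowest, median, highest) and 10.32, 10.35 and 10.47 in linalool rats. All 6 linalool rats lay above all 6 stress rats, as in 1 of 50 members and in 11.9% of all probe sets. It rose by 0.29 ± 0.0528 (SE; 10.08 ± 0.118 and 10.36 ± 0.0533, SD, n = 6 each; limma's adjusted p = 0.00321). The call held in every leave-one-out fit, with adjusted p from 0.0016 to 0.00801. A second Psme1 probe set (1394006_at) differed by 0.0344 residual SDs (limma's adjusted p = 0.972).

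Psme2, the beta subunit that joins Psme1 in the PA28 activator, rose by 1.93 residual SDs (limma's adjusted p = 0.0334). Its stress rats lay at -2.44, -1.08 and 0.461 residual SDs and its linalool rats at -0.478, 0.927 and 2.22, with overlap. Tapbp, the tapasin that bridges class I to the transporter, rose by 2.0 residual SDs (limma's adjusted p = 0.0277), from -2.45, -1.16 and 0.966 to -0.21, 1.13 and 1.68, also with overlap. Under quantile normalization Psme2 was at -0.0379 and Tapbp at 1.7 residual SDs, and neither passed; nor did they with the replicate number as a block. Psmb8 did not pass, at 1.5 residual SDs (limma's adjusted p = 0.0801). Of the 9 member genes whose promoters hold the interferon-response core, Psme2 and Tapbp passed on the deposited scale. That count is to be read beside the 25.0% of all probe sets that passed, and it was not tested. The called RT1-M3-1, RT1-CE5 and Psme1 are not among the 9.

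In class I, RT1-M3-1, at 0.145 and not passing under quantile normalization, rose by 2.05 residual SDs (limma's adjusted p = 0.0252), with stress rats at -2.1, -1.12 and 0.441 and linalool rats at -0.413, 1.06 and 2.35. RT1-CE5 (1371210_s_at) fell by 2.06 residual SDs (limma's adjusted p = 0.0243), from -0.0778, 1.18 and 1.99 to -2.58, -1.24 and 0.984. The groups overlapped in both. RT1-CE5 has 4 further probe sets, and their differences were -0.499, 0.287, 0.521 and, for the uncompressed one, 1.01 residual SDs (0.11 on the log2 scale). The call was thus seen in 1 of 5, with a further probe set lower and the others higher without passing. The fall of 1371210_s_at turned to a difference of 1.45 under median centring, and under quantile normalization it was -0.127 and did not pass.

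The class II coactivator Ciita fell by 1.73 residual SDs in 1 probe set (limma's adjusted p = 0.049). Its stress rats lay at -0.0656, 0.816 and 2.22 and its linalool rats at -2.82, -0.668 and 0.467, overlapping. The other Ciita probe set stood at -1.37 residual SDs without passing (limma's adjusted p = 0.109). The unmoderated t did not call Ciita, and median centring and quantile normalization turned its sign, to 1.4 and 0.893.

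These calls other than Psme1 depended on single rats. The count of 6 fell to 2 without linalool rat 1 and without stress rat 3, where 21.6% and 20.6% of all probe sets passed. It fell to 3 without linalool rat 2, linalool rat 4, stress rat 4 or stress rat 5, where 21.0%, 22.8%, 20.8% and 22.6% of all did. RT1-CE5 (1371210_s_at) kept its call in all of these fits but that without stress rat 3. Under quantile normalization the members called were B2m, Psme1 and Tap1, 3 of 50 where 8.4% of all probe sets passed.

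Class II structural genes showed no call in the linalool comparison. Cd74 read 7.77, 8.27 and 8.75 in stress rats and 7.72, 8.21 and 8.69 in linalool rats, a difference of -0.01 ± 0.196 (SE; limma's adjusted p = 0.968). RT1-Da, RT1-Ba (1377334_at) and RT1-Db1 (1370383_s_at) were compressed in this set and differed by 0.111, 0.339 and 0.81 residual SDs (limma's adjusted p = 0.908, 0.705 and 0.33). The second RT1-Db1 probe set (1370382_at) ran the other way, at -1.04 (limma's adjusted p = 0.215). The other RT1-Ba probe sets lay between -0.266 and 0.503 without passing. B2m differed by 0.266 residual SDs (limma's adjusted p = 0.778), Nlrc5 by -0.712 (0.395), Psmb9 by 0.777 (0.352) and Tap1 (1388149_at) by 0.996 (0.23).

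The medians were 0.287 residual SDs for class I, -0.119 for class II and 0.996 for peptide processing, beside -0.0136 for all probe sets. Peptide processing had 11 of 13 probe sets above 0. Its median lay between 0.778 and 1.25 in the leave-one-out fits. Under quantile normalization the medians were 0.259, 0.336 and 1.21 for class I, class II and peptide processing, beside 0.536 for all probe sets. Under median centring they were 1.44, 1.47 and 1.51, beside 1.48 for all. The difference between classes was not tested.

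**Figure D5:**
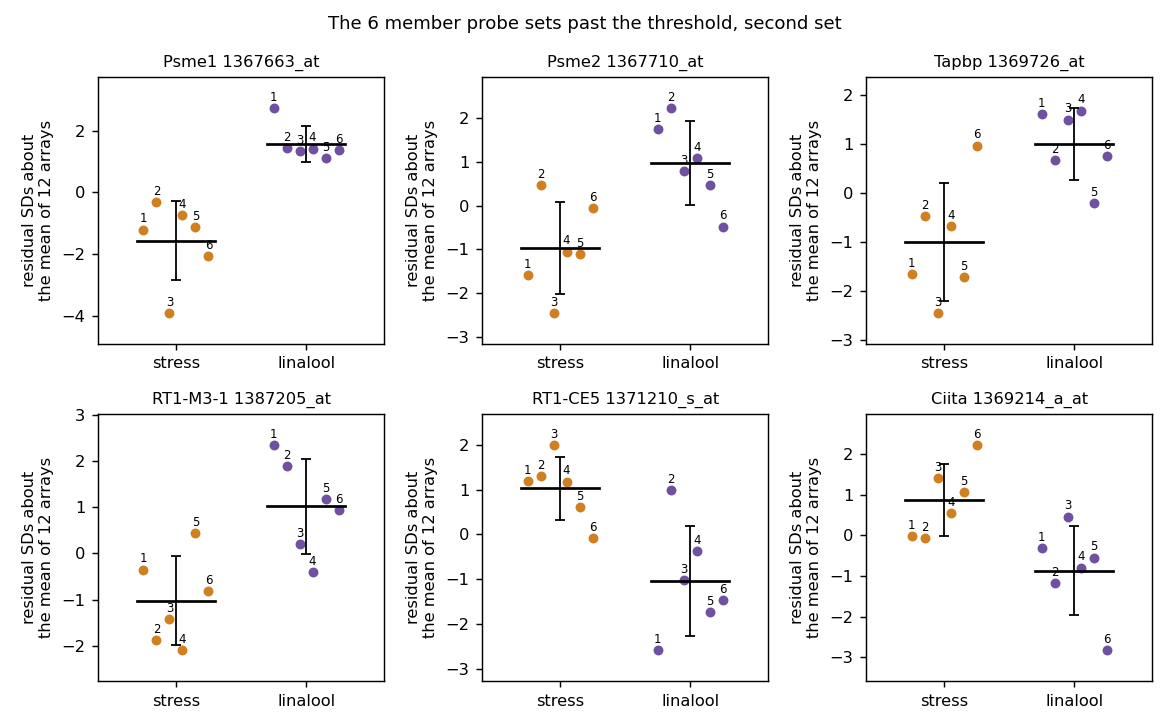
Level in residual SDs about the probe set's mean in each rat (points), with group mean and SD (bar and error bar), for the 6 members past the threshold, stress against linalool in the second set. In Psme1 all linalool rats lie above all stress rats (lowest linalool 1.11, highest stress -0.318), and in the other 5 the groups overlap. Those other 5 probe sets are compressed.

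RNA quality controls and markers of other cell types also differed in the linalool comparison. The 5' probe set of beta-actin was 0.199 log2 units higher in linalool rats, a difference of 3.55 residual SDs, while the 5' GAPDH probe set was lower, at -0.103 (limma's adjusted p, over the array's own controls, 0.000826 and 0.0257). The middle and 3' GAPDH probe sets were lower too (limma's adjusted p = 0.00492 and 0.031), though the 3' one was compressed, at -0.000112 log2 units. For beta-actin the middle probe set was higher, at 0.0767 (limma's adjusted p = 0.00905). Its 3' probe set, at -9.17e-05, did not pass (limma's adjusted p = 0.113). The 5' ends of the 2 genes thus stood in opposite directions. Against a background of 14.2% of probe sets called higher and 10.8% lower, 3 of 13 microglial markers rose (Aif1, Itgam and Tyrobp) and 0 fell, and the list's mean ran from -1.25 to 0.0459 in stress rats and from -0.0103 to 0.933 in linalool rats. Of 3 red cell markers 2 rose (Alas2 and Hbb), and of 10 endothelial markers 2 rose (Cldn5 and Esam). Itgam and Cldn5 were compressed, and Cldn5 turned to -0.904 under quantile normalization. The 7 lymphocyte and 4 border macrophage markers had 0 calls. Their part in the values of Psme1, Psme2 and Tapbp was not tested.

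Genes upstream and downstream of the members were read from lists of the same pathway. In the stress comparison 0 of 4 constitutive proteasome and assembly genes, 0 of 7 loading genes, 0 of 6 genes of the class II compartment and 0 of 7 shared promoter factors passed. Of 14 interferon signalling genes 1 did: Irf8, a transcription factor of the microglial and myeloid lineage, fell by 0.28 ± 0.047 (SE, n = 6 each; limma's adjusted p = 0.0311), with all stress rats below all controls. Without controls 4 to 6 the difference was -0.26 and did not pass (limma's adjusted p = 0.268). None of the 13 microglial markers read above passed in this comparison, and their differences went both ways.

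In the linalool comparison 3 of 6 genes of the class II compartment rose and 0 fell. Over all probe sets 14.2% were called higher and 10.8% lower, to be read beside each list. The lists hold only the brightest probe set of each gene, so their own background may differ. The genes that rose were the proteases Ctsl and Lgmn and the disulphide reductase Ifi30. Ctsl rose by 0.34 ± 0.0481 (SE; limma's adjusted p = 0.000783). Pomp, the proteasome maturation protein, rose by 0.39 ± 0.0378 (SE; limma's adjusted p = 0.000146), as 1 of 4 in its list. Among 7 loading genes the translocon subunit Sec61b and the disulphide isomerase Pdia3 rose, while the chaperone Calr and the peptidase Lnpep fell. Lgmn, Ifi30 and Lnpep were compressed: none passed under quantile normalization, and Lnpep turned to 1.8 there and to 1.47 under median centring. Pdia3 did not pass under quantile normalization either (limma's adjusted p = 0.107).

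Beside the same 14.2% of all probe sets called higher and 10.8% lower, 4 of the 7 factors shared by class I and class II promoters rose (Rfx5, Rfxap, Nfya and Nfyb) and Rfxank fell. Of these 5 only Nfyb was not compressed, with a rise of 0.13 ± 0.0374 (SE; limma's adjusted p = 0.0241) that passed under both scalings. None of the others passed under quantile normalization, where Rfx5, Rfxap and Rfxank also turned sign, as did Rfxank under median centring. The Y boxes shown above are the kind of site that NF-Y, with its subunits Nfya and Nfyb, is known to bind. A link from these factors to the members was not tested. Of 14 interferon signalling genes 3 rose (Ifngr1, Irf1 and Stat2) and 2 fell (Jak1 and Socs1). Ifngr1, a chain of the interferon gamma receptor, rose by 0.33 ± 0.0382 (SE; limma's adjusted p = 0.000301), with no overlap, and passed under both scalings. The other 4 were compressed and did not pass under quantile normalization, and Socs1 turned sign under both scalings and Jak1 under median centring. Among 5 receptors of class I and T cell coreceptors 0 passed.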

How the data were processed

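Each rat's RNA was hybridised to 1 3' expression array, per the labels' protocols. The authors deposited log2 signals per probe set (5.59 to 14.93; log2 read from this range), normalized in 2 sets, control with stress and stress with linalool, per the series design text. Summarization and normalization methods are not given in the sources used here.

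Each set was fitted separately in R 4.3.3 using limma 3.58.1 (two-sided moderated test, no filter) over the 31042 probe sets that are not array controls, with Benjamini-Hochberg adjustment at 0.05. Members were read out of these fits with pandas 2.3.3. The fit was tested on simulated data. Since the labels name separate rats, p-values cover rat-to-rat spread, and the number of arrays limits the precision. The members, classes and lists were chosen with earlier results of these data known. Values are given for every member past the threshold, the 2 members of each class with the smallest p, and B2m, Cd74, Tap1, Psmb8, Psmb9, Nlrc5 and Ciita (brightest probe set), plus genes said to be picked afterwards. Listed genes were read through their brightest probe set.

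Alternatives were median centring, quantile normalization, an unmoderated t, 1 probe set per gene, only probe sets at or above the median signal, the replicate number as a block, and each array left out.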

Additional observations from a re-analysis of the deposited data

Results flagged for a closer look

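In 17 of 128 groups of 6 rats, over 32 member probe sets, the highest or lowest rat stood apart from the nearest other rat by more than Dixon's 95% limit on the gap over the range allows. Chance flags about 1 in 20 independent groups. That share is no yardstick for the 17, since the 32 probe sets were not drawn at random from the members. They include RT1-T24-3, which was singled out after its values were seen, and the RT1-S3 probe sets, which also spread widely between rats. The 128 are not independent, since the stress rats enter in both sets and RT1-T24-3 in stress rat 5 is counted in each. Each value below is a distance from the probe set's mean over the 12 arrays, in residual SDs.

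Of these 17, 12 belong to RT1-T24-3 and RT1-S3 and to the same 3 rats. RT1-T24-3 stood at 2.27 in control 5, at 1.72 and, in the second set, 1.66 in stress rat 5, and at 2.31 in linalool rat 1. The 4 RT1-S3 probe sets stood at 2.11, 2.06, 2.36 and 2.27 in control 5. In linalool rat 1 they stood at 2.34, 2.22, 2.35 and 2.49.

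Of the others, Psme1 stood at 2.74 in linalool rat 1 (10.47 log2 signal, median of the other 5 rats 10.34). In the second set RT1-Db1 stood at -2.1 in stress rat 3, RT1-Ba at -2.39 in stress rat 2 and RT1-CE5 at -1.51 in stress rat 3. Ciita stood at -1.36 in stress rat 3 in the first set. In these last 4 cases the probe set was compressed, so the log2 signals were equal to 2 decimals.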

How the results depend on the processing

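In the stress comparison 0 members passed under every alternative run. Median centring moved its class medians to 1.08 (class I), 1.1 (class II) and 1.1 (peptide processing), at 1.1 for all probe sets, and quantile normalization moved them to 0.607, 0.872 and 0.868, at 0.877 for all. Signs turned for RT1-CE16 (1.1 under centring, 1.32 under quantile), RT1-CE5 (1.06 and 0.681), Tap1 (1.1 and 0.868) and Psmb8 (1.09 and 1.15). Centring shifts an array by more than the spread of a compressed probe set, by its own construction. In the linalool comparison members called were 39 under median centring (93.4% of all probe sets), 3 under quantile normalization (8.4%) and 2 (20.6% to 21.6%) to 7 with 1 array left out. Class medians under centring were 1.44 (class I) and 1.47 (class II). Signs turned for RT1-CE5 (1.45 under centring), Psme2 (-0.0379 under quantile), Ciita (1.4 and 0.893; its other probe set 1.46 under centring), Nlrc5 (1.43 under centring) and B2m (-3.8 under quantile; -0.0772 to 0.794 with 1 array left out). Cd74 ran from -0.349 to 0.305 with 1 array left out. With the replicate number as a block, 0 members passed for stress and 4 for linalool (Psme1, Psmb8, RT1-CE5 and RT1-M3-1, at 17.9% of all probe sets), but the samples share only a number: same-numbered arrays correlated at 0.0755 to 0.223 (stress) and -0.105 to 0.182 (linalool) in their deviations from group means. Of the other genes in the lists that passed for linalool, the 14 not compressed kept their sign under both scalings, while of 13 compressed genes 4 turned under centring and 6 under quantile normalization, an alternative chosen after seeing the data. The causes other than that of centring were not tested. The distance of each signal from background was not measured here.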

Other observations

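The 6 stress rats were normalized in both sets, so each member can be read from the same RNA under 2 normalizations. Over the 6 rats the median Pearson correlation between the sets was 0.982 over the 50 members, as a description of 2 normalizations of the same arrays, and the lowest was 0.213, in a compressed RT1-Ba probe set. The spread did not carry over. For 8 of 50 members the SD over the same 6 rats differed more than 10-fold between the sets, 5 of them in class II. RT1-Da had an SD of 0.103 log2 units over the stress rats when normalized with controls and 0.000194 when normalized with linalool rats. For Psmb9 the SDs were 0.101 and 0.000171, and for B2m they were 0.03 and 9.44e-05. For these 8 members, 5 of them in class II, a log2 difference can therefore not be compared in size between the 2 comparisons. Cd74 was not among them, with SDs of 0.314 and 0.351.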
